A study of Mus musculus with 8 samples.

Results

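Kinesins are the motor proteins that walk along or depolymerise microtubules. The kinesin genes were taken as every row of the transcript count table whose symbol begins with Kif or Kifc followed by a digit, and the rows were summed per symbol. This gave 44 of the 35963 symbols in the table, from 266 transcripts. By their known roles, 14 were placed in a mitotic class, 15 in a transport class and 12 in a class of other kinesins. The remaining 3 symbols encode no motor: Kif1bp, a kinesin binding protein, Kif16bos, an antisense RNA, and Kif4-ps, a pseudogene. After the filter on low counts, 38 of the 44 were tested: 13 mitotic, 14 transport and 10 other kinesins, and Kif1bp. Some motors and subunits do not have names of this form and lie outside the set, such as Cenpe, a kinesin of the kinetochore, and Kifap3, the adaptor of the heterotrimeric kinesin-2.

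The RNA came from epithelial cells released by a buffer from the proximal colon of mice aged 4 weeks, and 8 libraries were sequenced. In 4 libraries, labelled Ccna2-KO, both alleles of Ccna2 were floxed and a Cre transgene under the villin promoter (vil-Cre), which is active in intestinal epithelial cells, was present. In the 4 control libraries, labelled wild type, both alleles were floxed as well and no Cre was present. The question is how kinesin transcripts differ between colonic epithelium in which the gene for cyclin A2 is targeted and epithelium in which it is not. Any cells in the isolate in which the villin promoter is not active would keep the floxed gene intact. Whether each library came from its own mouse is not stated, and the p-values below refer to the spread among these libraries.

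Kinesins divide by task. In dividing cells, mitotic kinesins push the spindle poles apart, cross-link and bundle spindle microtubules, move chromosomes along their arms, trim microtubule ends and build the midzone at which the cell is cut apart, and most of their genes are transcribed in G2 phase and mitosis. Transport kinesins carry vesicles, mitochondria and other cargo in cells that need not divide, such as the differentiated cells that line the colon. Dividing cells in this epithelium sit at the base of the crypts.

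A promoter feature of the mitotic class was examined first, since their counts moved together in these libraries. The part of this feature in the counts was not tested. Cell cycle genes of G2 phase and mitosis are known to carry a cell cycle homology region (CHR), here searched for as TTTGAA or TTCGAA on both strands. RefSeq windows from 250 bases before to 50 bases after the annotated start (GRCm38.p6) existed for 13 of the 14 mitotic kinesin genes, with Kif20a the exception. A CHR match lay in 11 of these 13 windows (84.6%), and 9 genes had a match that began within 35 bases of the start. The windows of Kif18a and Kif2b held none. In all 32851 RefSeq windows the share was 19.2%, in the 14876 windows of genes tested here 14.7%, and in the windows of tested genes with a GC content in the range of the mitotic windows 16.8%. Of the 12 windows of transport kinesins, 1 held a match (8.3%), at an alternative start of Kif1a. These windows covered 10 of the 15 transport genes, and Kif5a, Kif5b, Kif13b, Kifc2 and Kifc3 had none. Their median GC content was 68.2%, against 60.7% for the mitotic windows. Of the 12 windows of other kinesins, 3 did (25.0%), those of Kif24, Kif26b and Kif27. A match of 6 letters is a description of the sequence and not a mapped binding site.

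The stretches of 30 bases around the match nearest the start are shown for the 9 mitotic genes with a match close to it, and for Kif24 and Kif26b, kinesins outside the mitotic class with a match as close. They read 5′ to 3′ on the strand of the gene, and the match is in capitals (TTCAAA is TTTGAA read on the other strand).
Kif11, chr19:37376351-37376380, plus strand: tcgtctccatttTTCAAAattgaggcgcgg
Kif15, chr9:122951050-122951079, plus strand: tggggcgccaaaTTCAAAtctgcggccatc
Kif22, chr7:127042420-127042449, minus strand: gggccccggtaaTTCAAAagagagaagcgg
Kif18b, chr11:102925104-102925133, minus strand: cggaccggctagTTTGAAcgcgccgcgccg
Kif20b, chr19:34922353-34922382, plus strand: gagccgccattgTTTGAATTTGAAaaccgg
Kif23, chr9:61946780-61946809, minus strand: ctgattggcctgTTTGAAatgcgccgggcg
Kif4, chrX:100626072-100626101, plus strand: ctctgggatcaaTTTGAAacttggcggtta
Kifc1, chr17:33890615-33890644, minus strand: cggaggttgaaaTTCAAAagtggcgggtgt
Kifc5b, chr17:26917108-26917137, plus strand: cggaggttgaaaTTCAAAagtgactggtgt
Kif24, chr4:41464857-41464886, minus strand: tcggcgcgcgcgTTCGAActggcgcttgtg
Kif26b, chr1:178529104-178529133, plus strand: tgggagaatttcTTTGAActcagttagcga
Kif20b carried 2 adjoining matches. A match did not go with 1 direction of difference outside the mitotic class. The log2 fold change was 1.20 for Kif24, −0.72 for Kif26b, −0.39 for Kif27 and −1.73 for Kif1a, whose match lay at an alternative start. In the test described below, Kif24 and Kif1a passed, and Kif26b and Kif27 did not. The stretches of Kifc1 and Kifc5b are alike, as are the genes, whose reads cannot be assigned with certainty to either. The matches of Kif14 and Kif2c lay 228 and 103 bases before starts that are inside the annotated span of those genes.

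The CCAAT letters, bound by the factor NF-Y, are often found upstream of a CHR. Anywhere in the window and on either strand, they were in 9 of the 13 mitotic windows (69.2%), 4 of the 12 transport windows (33.3%) and 37.4% of all windows. Of these 9 mitotic windows, that of Kif2b held no CHR match, and in Kif14 the CCAAT letters lay between the CHR match and the start. An E2F element, searched for as TTTCCCGC, TTTCGCGC, TTTGCCGC or TTTGGCGC on both strands, was in the windows of Kif15 and Kif18a alone among the 13, in none of the transport windows and in 2.3% of all windows. The 100 bases before the start are shown for Kif11 and Kif15, with every match in capitals, and for Kif5c, a transport kinesin with no match. The window of Kif15 held no CCAAT letters.
Kif11, chr19:37376282-37376381, plus strand: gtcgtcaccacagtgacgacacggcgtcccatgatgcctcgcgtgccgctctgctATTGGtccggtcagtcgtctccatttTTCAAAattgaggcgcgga
Kif15, chr9:122950981-122951080, plus strand: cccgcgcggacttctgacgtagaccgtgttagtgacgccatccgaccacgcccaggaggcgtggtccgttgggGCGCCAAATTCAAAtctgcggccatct
Kif5c, chr2:49619186-49619285, plus strand: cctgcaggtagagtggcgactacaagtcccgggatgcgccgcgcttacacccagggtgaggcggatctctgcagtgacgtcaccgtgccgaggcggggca
In Kif11 the CCAAT letters (ATTGG on this strand) begin 45 bases and the CHR match 19 bases before the start. In Kif15 the E2F match (GCGCCAAA on this strand) directly adjoins the CHR match without overlap.

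**Figure D1:**
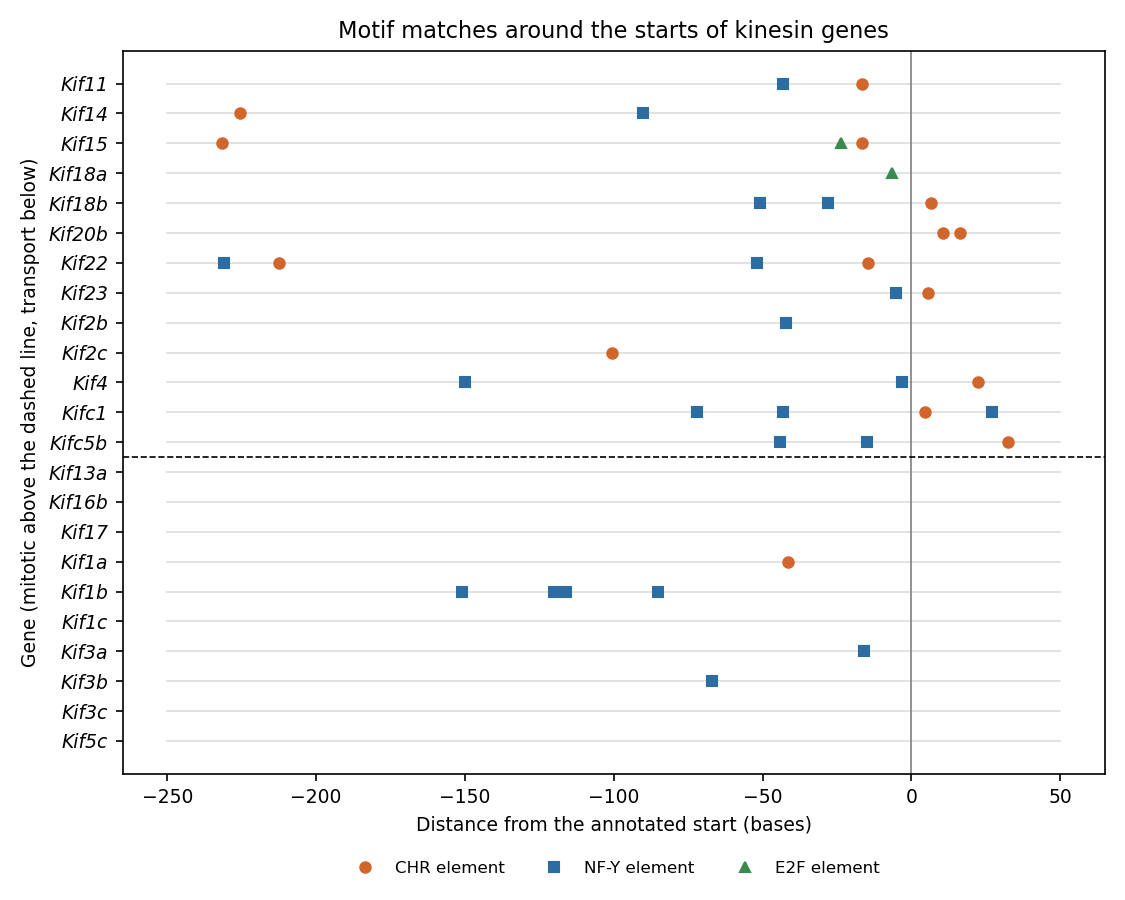
Positions of motif matches relative to the annotated start (horizontal axis, bases) in the RefSeq windows of 13 mitotic (above the dashed line) and 10 transport kinesin genes (below it); each symbol is the centre of a match, and genes with 2 windows are on 1 line. CHR matches begin within 35 bases of the start in 9 mitotic genes, and the match of Kif1a, the 1 transport gene that has any, begins 44 bases before an alternative start.

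Gene totals were 25960180 to 33028486 counts per library, and kinesins made up 0.132% to 0.163% of them. Ccna2 itself was counted at 54.3, 25.9, 11.9 and 18.3 counts per 1e6 gene counts (CPM) in control replicates 1 to 4 and at 18.2, 26.6, 26.6 and 16.2 CPM in Ccna2-KO replicates 1 to 4. The groups overlapped, and the difference did not pass the test (log2 fold change −0.33 ± 0.41 SE, adjusted p = 0.673; exact two-sided permutation p = 0.8286). Without control replicate 1 the log2 fold change was 0.24 (adjusted p = 0.565). The count of the targeted gene therefore does not check the labels, and which exons were floxed is not stated in the labels. Markers of epithelium were present in all libraries, with 8 of 8 genes above 0 throughout and summed levels of 17564 to 19807 CPM in controls and 17101 to 23020 CPM in libraries labelled Ccna2-KO. Control replicate 1 stood apart from the other controls in many kinesins, so results are also given without it. The numbers in the library labels fall into a low set (control replicates 2 to 4 and Ccna2-KO replicate 4) and a high set (control replicate 1 and Ccna2-KO replicates 1 to 3). The meaning of the numbers is not stated. Some results are also given from a fit with a set term, which overlaps with genotype in 6 of the 8 libraries.

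Mitotic kinesins had higher counts in libraries labelled Ccna2-KO than in controls. Of 13 tested, 8 passed the threshold as higher and 0 as lower (edgeR, adjusted p under 0.05). Of all 15893 genes tested, 6.40% were called higher and 5.71% lower. DESeq2 called 11 mitotic kinesins higher and 0 lower (9.55% and 9.0% of all genes), and limma voom 10 and 0 (7.10% and 5.27%). All 13 had a positive log2 fold change, from 0.64 to 1.36 with a median of 1.10, while the median of all genes was −0.01. At an unadjusted p under 0.05, 12 of 13 were higher and 0 lower, against 12.7% and 13.5% of all genes. The 2 groups did not overlap in 7 of the 13, against 9.41% of all genes higher without overlap. Markers of cycling cells were higher beside them, with 2 of 6 called higher and 0 lower. The 6 markers, above 0 in all libraries, summed to 452, 255, 224 and 242 CPM in control replicates 1 to 4 and to 611, 764, 781 and 541 CPM in Ccna2-KO replicates 1 to 4. Their part in the kinesin differences was not tested. In bulk RNA, more cells in division and more RNA of these genes per cell cannot be told apart.

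**Figure D2:**
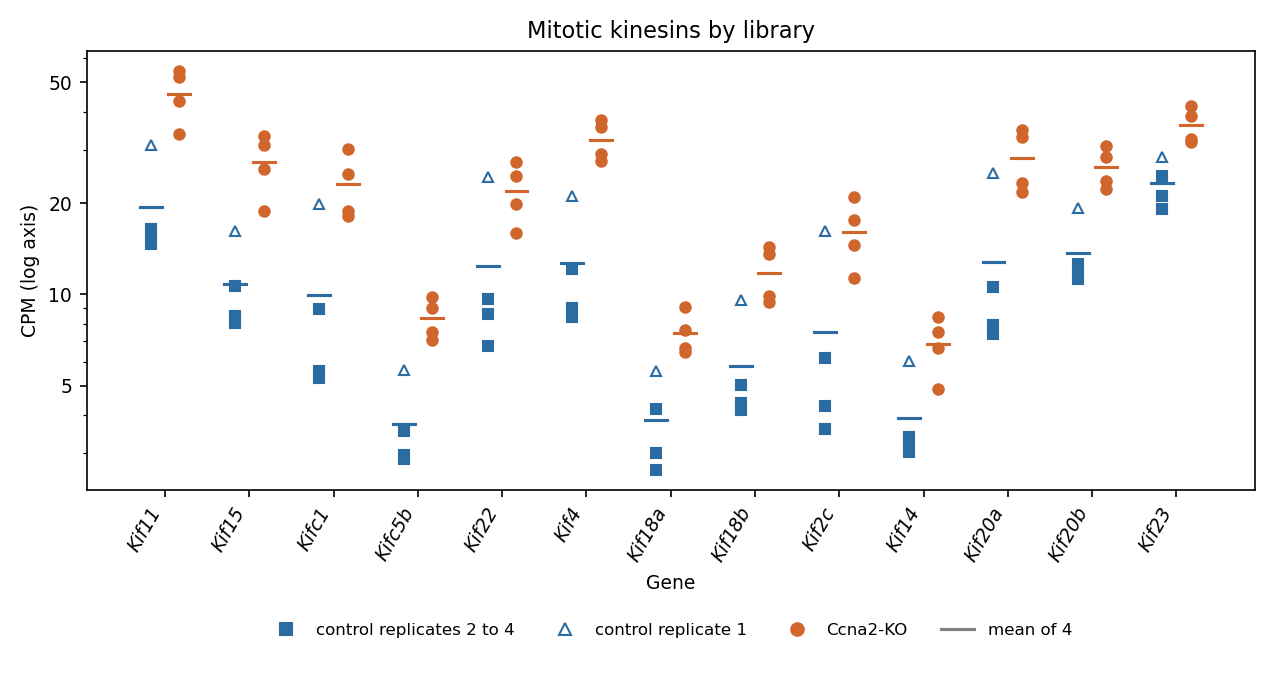
Levels (CPM, log axis) of the 13 tested mitotic kinesins in every library, with horizontal lines for the mean of 4. The open triangle is control replicate 1, which is the highest control in all 13, and the circles are the libraries labelled Ccna2-KO.

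Kif11 (chromosome 19, 37376382 to 37421863, GRCm38) encodes the tetrameric motor Eg5 that slides antiparallel microtubules and separates the spindle poles. It was counted at 31.0, 16.4, 14.7 and 15.6 CPM in control replicates 1 to 4 and at 43.3, 52.0, 54.7 and 33.7 CPM in Ccna2-KO replicates 1 to 4. The groups did not overlap, and Kif11 was 2.37-fold higher (log2 fold change 1.24 ± 0.26 SE, adjusted p = 0.0152). The call was lost without Ccna2-KO replicate 3 (adjusted p = 0.0509).

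Kif15 (chromosome 9, 122951081 to 123018733) encodes a motor that can keep the spindle bipolar when Kif11 is inhibited. Its levels were 16.1, 10.7, 8.06 and 8.51 CPM in the controls and 26.0, 31.1, 33.2 and 18.8 CPM in the libraries labelled Ccna2-KO. Every one of the latter lay above every control, with a 2.52-fold difference (log2 fold change 1.33 ± 0.25, adjusted p = 0.0104) that kept its call in all 8 fits that left out 1 library. The promoters of both motors carry the CHR match printed above at the same distance from the start.

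Kifc1 and Kifc5b are minus-end directed kinesin-14 genes that focus spindle poles. They are near-identical copies on chromosome 17, and each value is uncertain because reads may have been shared between them. Kifc1 was counted at 19.8, 8.98, 5.32 and 5.57 CPM in controls and at 18.8, 25.0, 30.2 and 18.1 CPM in libraries labelled Ccna2-KO. Control replicate 1 lay among the latter, and the difference did not pass (log2 fold change 1.22 ± 0.41, adjusted p = 0.0849; 1.81 and 0.00102 without that library). Kifc5b had 5.64, 2.95, 2.86 and 3.54 CPM in controls and 7.51, 8.99, 9.80 and 7.10 CPM in the other group, without overlap. It rose 2.23-fold (log2 fold change 1.16 ± 0.24, adjusted p = 0.0157), and the call was lost without Ccna2-KO replicate 2 (0.0509) or replicate 3 (0.0556).

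The chromosome arm motors, or chromokinesins, push chromosomes towards the spindle equator. Kif4 (chromosome X, 100626065 to 100727271), which also acts in chromosome condensation and at the midzone, had 21.0, 12.1, 9.01 and 8.42 CPM in controls and 29.1, 35.5, 37.5 and 27.5 CPM in libraries labelled Ccna2-KO. The groups did not overlap, and its 2.56-fold rise was the largest among the mitotic kinesins (log2 fold change 1.36 ± 0.28, adjusted p = 0.0146). The call held in all 8 fits that left out 1 library. Kif22 (chromosome 7, 127027729 to 127042467) had 24.4, 9.66, 8.61 and 6.79 CPM in controls and 19.8, 24.5, 27.3 and 16.0 CPM in the other group. Here control replicate 1 lay above 2 of the 4 libraries labelled Ccna2-KO, and the difference did not pass (0.83 ± 0.38, adjusted p = 0.203). Without that control it did (1.40, adjusted p = 0.00122).

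Motors at microtubule ends limit the length of spindle fibres. Kif18a (chromosome 2, 109280738 to 109341749), which damps the swing of chromosomes at the spindle equator, had 5.61, 4.19, 2.64 and 3.0 CPM in controls and 6.64, 7.65, 9.11 and 6.47 CPM in libraries labelled Ccna2-KO. Its relative Kif18b (chromosome 11, 102905518 to 102925134), which acts on astral microtubules, had 9.62, 5.03, 4.40 and 4.15 CPM against 9.87, 13.6, 14.4 and 9.41 CPM. For Kif18a the groups did not overlap, while for Kif18b control replicate 1 lay above Ccna2-KO replicate 4.

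Kif18a rose 1.94-fold (log2 fold change 0.95 ± 0.25, adjusted p = 0.0392) and Kif18b 2.04-fold (1.03 ± 0.29, adjusted p = 0.0475). Neither call held when any library other than control replicate 1 was left out, with adjusted p between 0.0541 and 0.117 for Kif18a and between 0.0561 and 0.133 for Kif18b. Without control replicate 1 the adjusted p was 0.00293 for Kif18a and 0.000898 for Kif18b.

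Kif2c (chromosome 4, 117159633 to 117182624), the microtubule depolymerase MCAK at kinetochores, had 16.1, 6.19, 4.27 and 3.60 CPM in controls and 14.5, 17.7, 21.0 and 11.3 CPM in libraries labelled Ccna2-KO. Control replicate 1 lay among the latter, and the difference did not pass (1.10 ± 0.45, adjusted p = 0.151; 1.79 and 0.00116 without that control). Of its subfamily, Kif2b had 0 counts in all 8 libraries, and Kif2a is given below with the other kinesins.

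The cytokinesis motors act at the spindle midzone and the cell bridge. Kif23 (chromosome 9, 61917277 to 61946810), the motor subunit of centralspindlin, had 28.5, 24.6, 21.1 and 19.1 CPM in controls and 32.5, 38.6, 41.9 and 31.9 CPM in libraries labelled Ccna2-KO. The groups did not overlap, and it rose 1.55-fold, the least of the called mitotic kinesins (log2 fold change 0.64 ± 0.15, adjusted p = 0.0252). The call was lost without control replicate 2 (0.0544), 3 (0.0734) or 4 (0.0670) and without Ccna2-KO replicate 2 (0.0757) or 3 (0.0802). Kif20b (chromosome 19, 34922335 to 34975750), which acts at the midzone and in the closing of the bridge, had 19.3, 12.6, 11.7 and 11.3 CPM in controls and 23.7, 28.4, 31.0 and 22.4 CPM in the other group. It rose 1.92-fold without overlap (log2 fold change 0.94 ± 0.19, adjusted p = 0.0147), a call lost without Ccna2-KO replicate 3 (0.0509).

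Kif20a, which brings the chromosomal passenger complex to the midzone, had 12.8 ± 8.34 CPM in controls and 28.3 ± 6.73 CPM in libraries labelled Ccna2-KO (SD, n = 4). Its difference did not pass (log2 fold change 1.15 ± 0.38, adjusted p = 0.0842). Kif14, which recruits citron kinase to the midbody, had 3.92 ± 1.41 and 6.87 ± 1.53 CPM and did not pass either (0.81 ± 0.27, adjusted p = 0.0842). Without control replicate 1 both passed (adjusted p = 0.000574 and 0.00403).

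The mitotic kinesins shared an order of libraries. Ccna2-KO replicate 3 was the highest of all 8 libraries in 13 of 13 genes, Ccna2-KO replicate 4 the lowest of its group in 13 of 13 and control replicate 1 the highest control in 13 of 13. The lowest library was control replicate 3 in 7 genes and control replicate 4 in 6. The genes were counted in the same libraries and are not independent of each other.

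Control replicate 1 and the library number set bore on the number of calls. Without control replicate 1, all 13 mitotic kinesins were called higher, with a median log2 fold change of 1.42, but calls became more common in general (15.1% of 16247 genes higher). The libraries labelled Ccna2-KO then lay above every control in 13 of 13, against 19.0% of all genes. With a term for the number set, 9 of 13 were called higher against 9.29% of all genes, and the median was 0.73. The 8 above stayed called and Kif20a was added (0.79, adjusted p = 0.0484). Within the low set, Ccna2-KO replicate 4 lay above all 3 controls in 13 of 13 genes. Within the high set, all 3 libraries labelled Ccna2-KO lay above control replicate 1 in 9 of 13, and Kif20a, Kif22, Kif2c and Kifc1 were the 4 in which the control lay among them. Of the 14 transport kinesins tested, 4 lay above in the low set and 9 in the high set. Each of these comparisons set 1 library against 3, and the share of all genes in these positions was not computed.

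Transport kinesins had differences of both signs. Of 14 tested, 0 were called higher and 1, Kif1a, was called lower (6.40% and 5.71% of all genes). At an unadjusted p under 0.05, 1 was higher and 3 were lower (12.7% and 13.5% of all genes). DESeq2 called 0 higher and 3 lower (9.55% and 9.0% of all genes), and limma voom 0 and 1 (7.10% and 5.27%). The median log2 fold change was −0.06, from −1.73 to 0.84, and 5 of 14 were positive. With the set term the median was 0.14, with 1 called higher and 0 lower (9.29% and 8.90% of all genes). The groups did not overlap in 4 genes, Kif5b and Kif5c higher and Kif1a and Kif3c lower, where 9.41% and 9.60% of all genes lay apart in these directions.

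**Figure D3:**
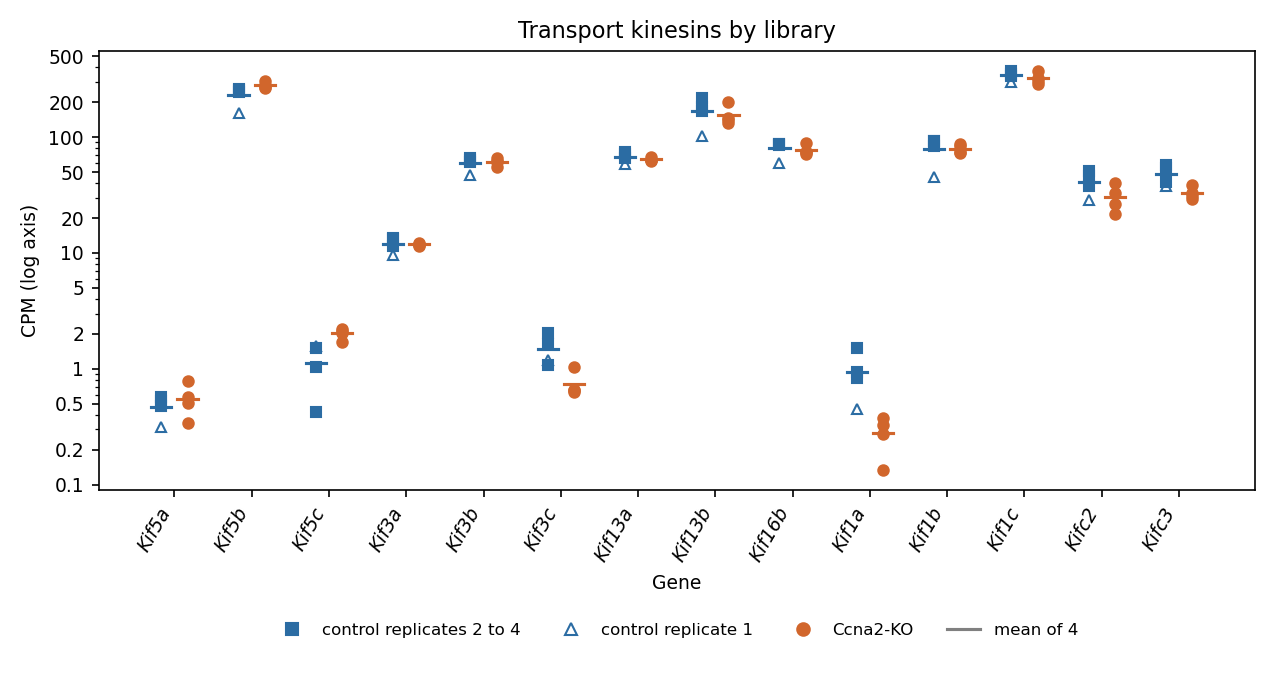
Levels (CPM, log axis) of the 14 tested transport kinesins in every library, with horizontal lines for the mean of 4. The groups overlap in 10 of 14 genes, and control replicate 1 (open triangle) is the lowest control in 12 of 14.

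The kinesin-1 motors carry many cargoes and work with kinesin light chains. Kif5b, the form present in most tissues, had 163, 259, 253 and 246 CPM in controls and 283, 265, 273 and 305 CPM in libraries labelled Ccna2-KO. All of the latter lay above the controls, the nearest pair being 259 and 265 CPM, and the difference did not pass (log2 fold change 0.29 ± 0.15, adjusted p = 0.265). It did pass with the set term (0.51, adjusted p = 0.0169), while without control replicate 1 it was 0.16 (adjusted p = 0.194). Kif5a and Kif5c, the forms best known from neurons, were low: 0.473 ± 0.113 and 0.551 ± 0.183 CPM for Kif5a and 1.13 ± 0.53 and 2.02 ± 0.21 CPM for Kif5c in controls and libraries labelled Ccna2-KO (SD, n = 4). Neither difference passed (adjusted p = 0.752 and 0.177).

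The kinesin-2 motors drive transport within cilia and of some vesicles. Kif3a (chromosome 11, 53565701 to 53604248) had 9.58, 11.5, 13.5 and 13.2 CPM in controls and 11.7, 11.5, 12 and 12.3 CPM in libraries labelled Ccna2-KO. The latter lay within the range of the controls (log2 fold change −0.01 ± 0.14, adjusted p = 0.967). Its partner Kif3b had 59.6 ± 8.40 and 61.2 ± 4.66 CPM (0.04 ± 0.12, adjusted p = 0.882). Kif3c, an alternative partner, had 1.48 ± 0.44 and 0.747 ± 0.199 CPM, and its difference did not pass (−0.98 ± 0.29, adjusted p = 0.0590; −1.08 and 0.0243 without control replicate 1). Kif17, at most 0.235 CPM in any library, was not tested.

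Kinesin-3 motors carry vesicles and, for Kif1b, mitochondria. Kif1c (chromosome 11, 70700396 to 70731970) had 300, 374, 352 and 336 CPM in controls and 304, 290, 323 and 370 CPM in the other group, with full overlap (log2 fold change −0.08 ± 0.12, adjusted p = 0.720). Kif1b (chromosome 4, 149176319 to 149307773) had 45.7, 83.8, 92.4 and 91.8 CPM in controls and 83.4, 73.8, 72.7 and 88.0 CPM in libraries labelled Ccna2-KO. Control replicate 1 was low and the other 7 libraries lay close together (0.02 ± 0.20, adjusted p = 0.968; −0.17 and 0.192 without that control). Kif13a, Kif13b and Kif16b, which carry endosomal and other vesicles, had log2 fold changes of −0.08, −0.10 and −0.05 and did not pass.

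Kif1a (chromosome 1, 93015455 to 93102039), which carries synaptic and dense-core vesicles in neurons and secretory cells, was the transport kinesin that was called. It had 13, 21, 49 and 31 counts (0.453, 0.838, 1.51 and 0.939 CPM) in controls and 4, 11, 12 and 7 counts (0.135, 0.330, 0.374 and 0.275 CPM) in libraries labelled Ccna2-KO. The groups did not overlap, and Kif1a fell to 0.301 times the control level (log2 fold change −1.73 ± 0.43, adjusted p = 0.0301).

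The Kif1a call rests on few counts and did not hold with the set term (−1.29, adjusted p = 0.0904) or when any library other than control replicate 1 was left out (0.0574 to 0.0814). Markers of enteroendocrine cells, the hormone-secreting cells of the epithelium, were lower beside it. The 10 markers, all above 0 in every library, summed to 163 to 221 CPM in controls and 44.2 to 68.9 CPM in libraries labelled Ccna2-KO, and 6 of the 9 tested were called lower and 1 higher (5.71% and 6.40% of all genes). Markers of neurons and glia summed to 1.84 to 3.38 and 2.0 to 2.56 CPM, with Sox10 at 0 in all libraries. The part of either cell type in the Kif1a difference was not tested.

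The kinesin-14 transport motors Kifc2 and Kifc3, of which Kifc3 acts at epithelial junctions, were lower without passing. Kifc2 had 41.2 ± 9.97 CPM in controls and 30.2 ± 7.97 CPM in libraries labelled Ccna2-KO (log2 fold change −0.45 ± 0.22, adjusted p = 0.242). Kifc3 had 47.7 ± 9.46 and 32.9 ± 4.30 CPM (−0.53 ± 0.16, adjusted p = 0.0558). Kifc3 passed as lower without control replicate 1 (−0.63, adjusted p = 0.00805), with scaling by the upper quartile or by library totals, and with DESeq2.

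Among the other kinesins, 2 of 10 tested were called higher and 0 lower, where 6.40% and 5.71% of all genes were. At an unadjusted p under 0.05 they were 3 and 2 (12.7% and 13.5% of all genes), with DESeq2 3 and 1 (9.55% and 9.0%) and with limma voom 2 and 0 (7.10% and 5.27%). Their median log2 fold change was −0.15. Kif24 (chromosome 4, 41389964 to 41464919), which remodels microtubules at centrioles and restrains cilium formation in cycling cells, had 3.90, 2.79, 2.92 and 2.70 CPM in controls and 6.97, 8.10, 8.05 and 5.18 CPM in libraries labelled Ccna2-KO. The groups did not overlap, and the 2.30-fold rise had the smallest adjusted p of all kinesins (log2 fold change 1.20 ± 0.21, adjusted p = 0.00686). It was called in all 8 fits that left out 1 library, and its promoter holds the CHR match shown above with those of the mitotic class.

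Kif9 (chromosome 9, 110476738 to 110525174), a kinesin of motile cilia and flagella, was low, with 1.43, 1.64, 1.60 and 1.30 CPM in controls and 2.93, 2.61, 2.50 and 2.04 CPM in the other group. It rose 1.69-fold without overlap (log2 fold change 0.76 ± 0.20, adjusted p = 0.0410). The call held without control replicate 1 (0.0284) and without Ccna2-KO replicate 4, was lost when any of the other 6 libraries was left out (0.0742 to 0.124), and was lost with the set term (0.0766).

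The microtubule regulators Kif2a, a depolymerase, and Kif21a and Kif21b, which slow microtubule growth, did not pass. Kif2a had 53.1 ± 5.78 CPM in controls and 66.6 ± 2.12 CPM in libraries labelled Ccna2-KO (0.33 ± 0.10, adjusted p = 0.0618), without overlap, and Kif21a had 37.0 ± 4.05 and 43.7 ± 3.81 CPM (0.24 ± 0.11, adjusted p = 0.206). Both passed as higher with the set term (adjusted p = 0.0140 and 0.0475). Kif21b had 90.2 ± 36.9 and 55.3 ± 6.99 CPM (−0.71 ± 0.29, adjusted p = 0.149; −0.94 and 0.00195 without control replicate 1). Within the high set the direction of Kif21b was the opposite (0.42), and within the low set it was −1.04. Markers of leukocytes, in which Kif21b is also transcribed, summed to 22.2 to 73.7 CPM in controls and 17.2 to 23.6 CPM in libraries labelled Ccna2-KO, with 10 of 10 above 0 in all libraries, and their part in this difference was not tested.

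The atypical kinesins Kif26a and Kif26b, which do not walk, and Kif12 had negative log2 fold changes. Kif26a, known for a role in the enteric nervous system, had 1.31 ± 1.07 and 0.376 ± 0.050 CPM (−1.80 ± 0.54, adjusted p = 0.0602; −2.20 and 0.0118 with the set term; −1.10 and 0.0432 without control replicate 1). Kif12 had 18.1 ± 10.4 and 10.9 ± 2.09 CPM (−0.73 ± 0.35, adjusted p = 0.228; −1.09 and 0.0156 with the set term; −0.28 and 0.405 without control replicate 1). The remaining tested genes, Kif19a, Kif26b and Kif27, had adjusted p from 0.371 to 0.921. Kif6 and Kif7, at most 0.303 CPM in any library, were not tested.

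**Figure D4:**
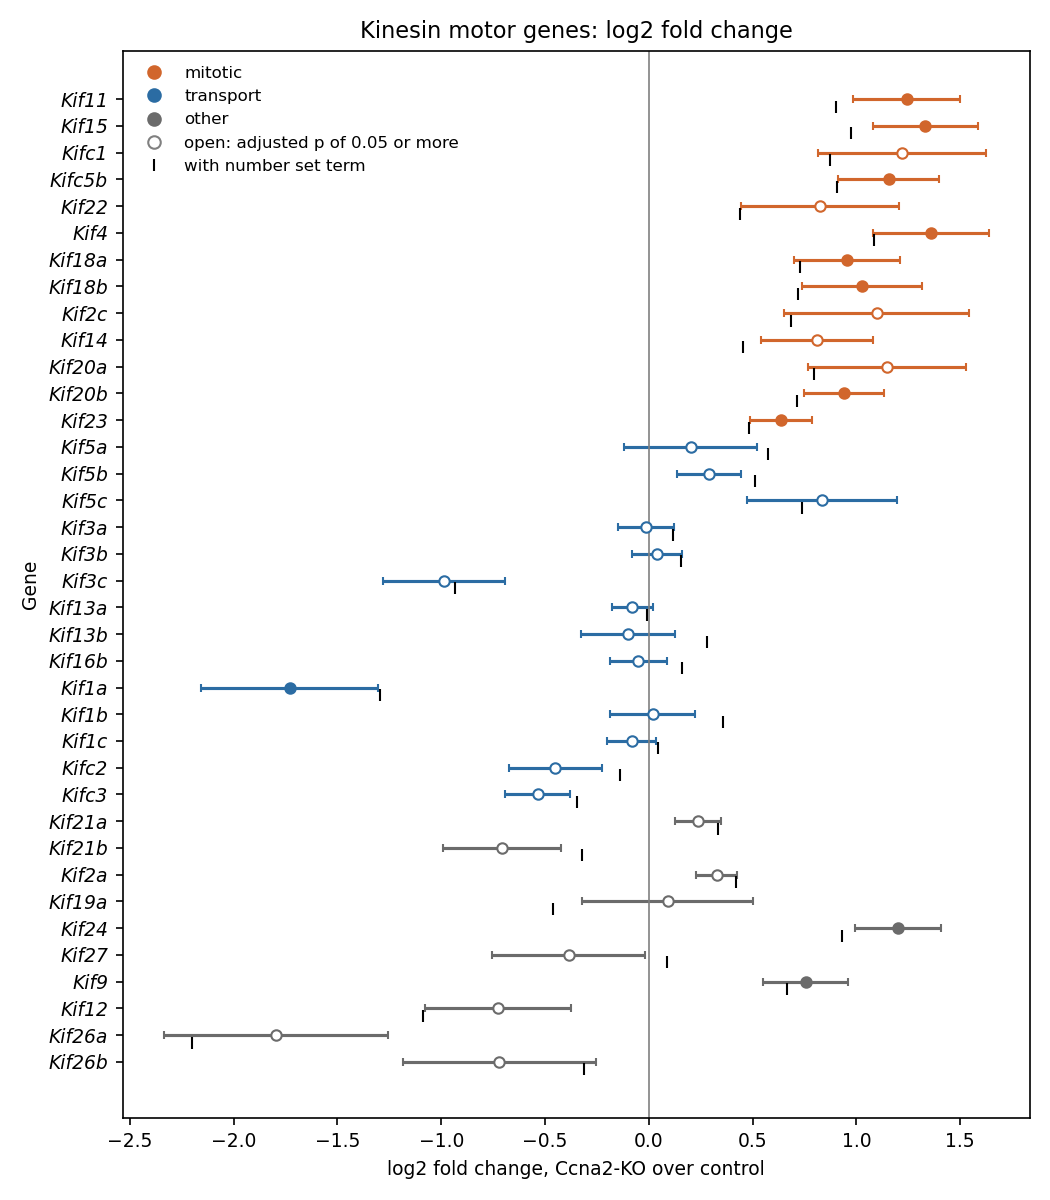
Log2 fold change of the 37 tested motor genes, libraries labelled Ccna2-KO over controls, with the standard error as the bar; filled points have an adjusted p under 0.05, and ticks give the estimate from the fit with the set term. All 13 mitotic kinesins lie to the right of 0, and transport and other kinesins lie on both sides.

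Levels can be compared between genes only per transcript length, taken as the longest GENCODE transcript. In controls, Kif1c had 51.0 CPM per kilobase, Kif5b 38.1, Kif13b 18.8, Kifc3 14.1 and Kifc2 12.8, so that the 5 highest of 37 tested motors were transport kinesins. The highest mitotic kinesin, Kif23, ranked 12 with 6.87 CPM per kilobase. In libraries labelled Ccna2-KO, Kif1c (48.1) and Kif5b (46.6) were still the highest, while Kif23 (10.7), Kifc1 (9.78) and Kif11 (9.53) ranked 7, 8 and 10. At the other end, Kif1a, Kif5a and Kif26b were the 3 lowest tested motors in controls, at 0.114, 0.0751 and 0.0395 CPM per kilobase.

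The make-up of the kinesin counts follows from these levels. Mitotic kinesins were 17.9%, 7.96%, 6.33% and 6.71% of all kinesin counts in control replicates 1 to 4, and 16.6%, 20.7%, 21.6% and 13.4% in Ccna2-KO replicates 1 to 4. Transport kinesins were 67.2%, 76.9%, 77.6% and 77.5% in the controls and 69.7%, 66.0%, 65.6% and 74.2% in the other group. The mitotic share in control replicate 1 lay above those of Ccna2-KO replicates 1 and 4, so the shares of the groups overlapped. In summed levels, the mitotic class had 101 to 228 CPM in controls and 229 to 353 CPM in libraries labelled Ccna2-KO, and the transport class 856 to 1264 and 1030 to 1273 CPM. Counts without correction for length give long genes more weight in these shares.

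**Figure D5:**
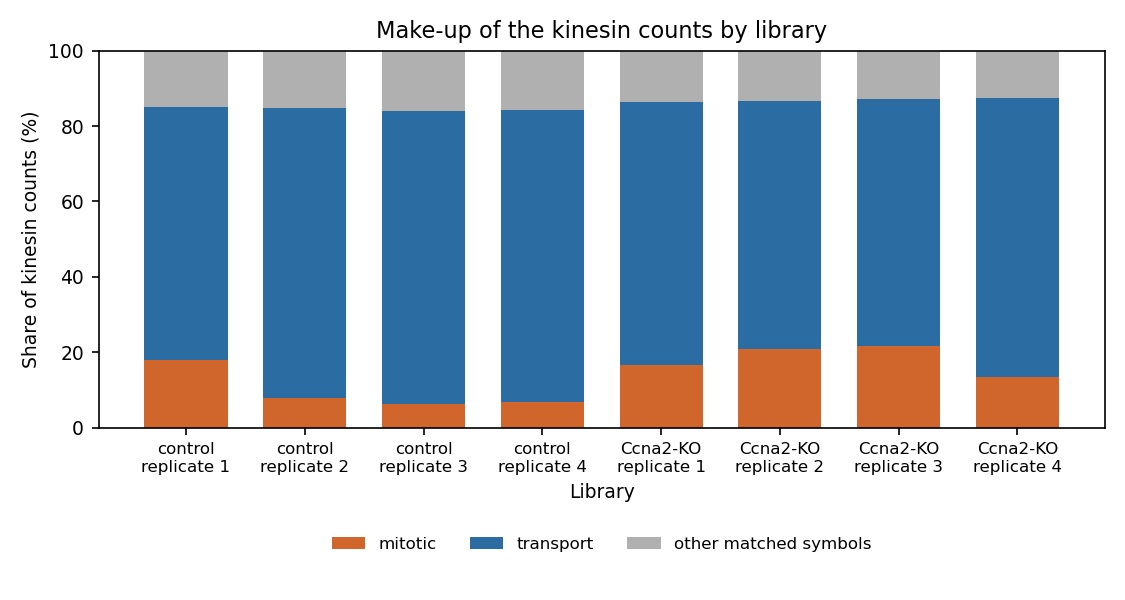
Share of all kinesin counts (%) from mitotic, transport and other matched symbols in each library, as stacked bars from 0 to 100. The mitotic share is 6.33% to 7.96% in control replicates 2 to 4, 17.9% in control replicate 1 and 13.4% to 21.6% in libraries labelled Ccna2-KO.

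Partners of the motors were read from lists of genes whose proteins act with them or at the same structures. Of 18 partners of mitotic kinesins, 6 were called higher and 0 lower, against 6.40% and 5.71% of all genes, with a median log2 fold change of 0.91. Of the 18, 17 had a positive log2 fold change, and the lowest was −0.24. Higher were 10 with DESeq2 (9.55% of all genes), 8 with limma voom (7.10%) and 14 at an unadjusted p under 0.05 (12.7%), and 0 were lower in each. With the set term edgeR called 8 higher and 0 lower (9.29% and 8.90% of all genes). Without control replicate 1 it called 16 higher and 1 lower (15.1% and 13.4%). Citron kinase (Cit), which Kif14 binds at the midbody, rose by 1.24 ± 0.16 (adjusted p = 0.00184), and the cleavage furrow scaffold Anln by 1.20 ± 0.20 (adjusted p = 0.00566). Ect2, the activator of RhoA that centralspindlin brings to the midzone, rose by 0.97 ± 0.17 (adjusted p = 0.00727), and the kinetochore protein Kntc1 by 1.59 ± 0.29 (adjusted p = 0.00933). These values are log2 fold changes, and all 4 genes kept their calls in the 8 fits that left out 1 library.

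Of 19 partners of transport kinesins, 17 were tested and 0 were called with edgeR, DESeq2 or limma voom (0 higher and 3 lower at an unadjusted p under 0.05 in edgeR, against 12.7% and 13.5% of all genes), with a median log2 fold change of −0.19. With the set term edgeR called 0 higher and 2 lower (9.29% and 8.90% of all genes), and without control replicate 1 it called 0 higher and 4 lower (15.1% and 13.4%). The smallest adjusted p was that of Mapk8ip1, a scaffold that links kinesin-1 to cargo, with −0.78 ± 0.27 (adjusted p = 0.0923). Of 24 subunits and adaptors of dynein and dynactin, the motor that moves the other way along microtubules, edgeR called 0, with a median of 0.08. At an unadjusted p under 0.05 in edgeR, 2 were higher and 0 lower (12.7% and 13.5% of all genes). DESeq2 called 2 higher (9.55% of all genes) and limma voom 1 higher (7.10%). With the set term edgeR called 1 higher and 0 lower (9.29% and 8.90% of all genes). Without control replicate 1 it called 4 higher and 0 lower (15.1% and 13.4%). Spdl1, which brings dynein to kinetochores, had the smallest adjusted p (1.05 ± 0.33, adjusted p = 0.0719).

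At the level of single transcripts, 111 of the 266 kinesin transcripts were tested and edgeR called 0, where 0.930% of 38384 transcripts were called. At an unadjusted p under 0.05, 16 (14.4%) were higher and 7 (6.31%) lower, against 5.85% and 5.62% of all transcripts tested. Without control replicate 1, 13 kinesin transcripts were called, where 3.50% of 40492 transcripts were. The smallest adjusted p was that of the Kif15 transcript with the most counts, at 3.76 ± 0.94 CPM in controls and 9.25 ± 1.71 CPM in libraries labelled Ccna2-KO (log2 fold change 1.31 ± 0.26, adjusted p = 0.0700). Reads that fit several transcripts of a gene are shared between them by the counting, which adds spread to single transcripts that the sum per gene does not have.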

How the data were processed

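The authors deposited a table of estimated counts per RefSeq transcript for 8 libraries. The submitters' processing notes name kallisto and GRCm38 (mm10), without a kallisto version. Strandedness and the number of mice are not stated. Kallisto shares reads that fit several transcripts, so near-identical genes are uncertain. The labels gave each library its group and replicate number.

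These estimated counts were added up by symbol, then rounded. The 687 transcripts without a symbol (3.19% to 5.51% of counts) were left out of library sizes and tests. The test was edgeR 4.0.16 (R 4.3.3) with its default filter, TMM scaling, a robust quasi-likelihood F test with genotype as the only term and all 8 libraries, and Benjamini-Hochberg adjustment over 15893 genes, threshold 0.05. CPM use TMM-scaled gene totals. The ± of a log2 fold change is its standard error and that of a CPM mean an SD over 4 libraries. The main edgeR fit was tested on simulated data in which no library stood apart, and the other fits were not. Depth was 25960180 to 33028486 counts per library, so that low genes such as Kif1a rest on few counts.

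Named genes were every kinesin with adjusted p under 0.05, plus Ccna2, Kif11, Kif23, Kif2c, Kif4, Kif22, Kifc1, Kif5b, Kif3a, Kif1b and Kif1c whatever their values, other kinesins by group means, and up to 4 partners per list with the smallest adjusted p. The kinesins, their classes, the partner and marker lists, the tests and the alternatives were chosen with earlier results of these data known, including that mitotic genes were higher and that control replicate 1 stood apart. Alternatives were RLE, upper quartile and total scaling, other filters, DESeq2 1.42.0, limma voom (limma 3.58.1), non-robust estimates, the replicate number as a block, the library number set (the label numbers divided at their widest gap) and leaving out each library. Windows at starts and gene positions are from RefSeq (GRCm38.p6), and transcript lengths from GENCODE on the same build.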

Additional observations from a re-analysis of the deposited data

Results flagged for a closer look

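In each group of 4 libraries, a kinesin was listed where its highest or lowest library lay apart from the others by more of the range of the group than Dixon's 95% critical value. Of 76 groups of 4 values, 10 were listed, and chance lists about 1 in 20 of independent groups. The groups come from the same 8 libraries and are not independent of each other. Control replicate 1 accounted for 8 of the 10 listed. It was high among the controls for Kif11 (31.0 CPM, others 14.7 to 16.4), Kif14 (6.03 CPM, others 3.01 to 3.39), Kif18b (9.62 CPM, others 4.15 to 5.03), Kif20b (19.3 CPM, others 11.3 to 12.6) and Kif22 (24.4 CPM, others 6.79 to 9.66), all mitotic kinesins, and for Kif19a (0.801 CPM, others 0.303 to 0.338). It was low for the transport kinesins Kif16b (60.3 CPM, others 85.0 to 88.1) and Kif5b (163 CPM, others 246 to 259). Among the libraries labelled Ccna2-KO, replicate 4 was high for Kif16b (88.4 CPM, others 71.9 to 74.4) and replicate 1 for Kif3c (1.04 CPM, others 0.627 to 0.660).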

How the results depend on the processing

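The positive median log2 fold change of the mitotic kinesins kept its direction in all 18 alternatives (0.90 to 1.42 when 1 library was left out). Counts of calls moved more. All genes called were 1924, and 2949 with DESeq2, 2892 with the library number set term, 987 with the replicate number as a block and 972 to 4627 when 1 library was left out. Kinesins called were 11, and 18 with DESeq2, 6 with the block and 3 to 21 when 1 library was left out. Mitotic kinesins called higher were 8, and 4 with the block and 2 to 13 when 1 library was left out, the lowest without Ccna2-KO replicate 3 and the highest without control replicate 1. Transport kinesins called higher were 0, and 1 with the set term. Those called lower were 1, and 2 with upper quartile scaling, 2 with scaling by library totals, 3 with DESeq2, 0 with the set term, 0 with a stricter filter (at least 1 CPM throughout a group), by which Kif1a was not tested, and 0 to 3 when 1 library was left out. Kinesin transcripts called were 0, and 0 to 13 when 1 library was left out.

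Signs changed in values near 0. The transport median became 0.14 with the set term and 0.014 without control replicate 3 (−0.15 to 0.014 over the libraries left out), and Ccna2 became 0.24 without control replicate 1 (−0.58 to 0.24). Kif1b was −0.17 without control replicate 1 and −0.03 without Ccna2-KO replicate 4 (−0.17 to 0.11). Kif1c was 0.045 with the set term. Kif3a was 0.12 with the set term, 0.051 and 0.037 without control replicates 3 and 4, and 0.0064 without Ccna2-KO replicate 1 or 2 (−0.10 to 0.051). Over 18 named kinesins, calls and signs were the same in 262 cases, lost in 47, gained in 6 and reversed in 8. The cause was not tested. Replicate numbers did not pair the libraries: deviations of same-numbered libraries correlated at −0.07, −0.35, −0.26 and 0.15, and not every library correlated best with its own number. With the block, the mitotic calls were Kif11, Kif15, Kif20b and Kif4.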
